A study of Mus musculus with 38 samples.

Results

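The glial gap junction connexins described here are 5 mouse genes: Gja1 (connexin 43), Gjb6 (connexin 30) and Gjb2 (connexin 26), known as astrocyte connexins, and Gjb1 (connexin 32) and Gjc3 (connexin 29), known as oligodendrocyte connexins. They were taken by gene symbol from the 15644 genes that had a probe set on the array, and each had 1 probe set. The study used translating ribosome affinity purification, in which a tagged ribosomal protein is driven in 1 cell type of a reporter mouse and the RNA on those ribosomes is pulled down, so that bound RNA stands for the marked cells and total RNA for the whole tissue. There were 38 arrays in 12 groups. The tumour groups were bound RNA of Olig2 cells from the Recruited, Pdgf Cre and Pdgf variants of a mouse glioma model and total RNA of the same 3 tumour variants, 3 arrays each. The cortex groups were bound RNA of adult wild-type cortex from 5 lines, 3 arrays each, which the sample titles name Aldh1L1 (astrocytes), Pdgfra (oligodendrocyte progenitors), Cnp1 (mature oligodendrocytes), Olig2 (cortical oligodendroglia, here cortical Olig2 cells) and Snap25 (neurons), and 5 arrays of total cortex RNA. All mice were of 1 mixed background of C57/Bl6J, FVB and Swiss-Webster. The labels give neither the alleles behind Pdgf, Cre and Recruited nor the age of the tumour mice. Each cortex sample pooled 2 mice or more, whereas for tumours nothing says that arrays came from separate animals, so p-values measure the spread between these arrays, part of which may be technical.

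Connexins are membrane proteins whose hexamers dock between neighbouring cells to form channels for ions and small metabolites. In the brain, astrocytes are joined to one another mainly through connexin 43 and connexin 30, and connexin 26 is a lesser astrocyte connexin that is also abundant in the meninges. Oligodendrocytes use connexin 32, among others, to join to each other and to astrocytes, and connexin 29 lies in myelin next to the axon without forming many known junctions. In gliomas connexin 43 has long been studied because its amount differs between tumour cells and the astrocytes around them.

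All 5 connexins were measured and passed the filter on low values. A level is a log2 signal of the authors' processing, brought to a common distribution over the 38 arrays. It can be compared between groups for 1 gene but not between genes, since probe sets differ in brightness. A level under 5.64, which is log2 of 50, is called dim and gives only a bound. Gja1 was above that limit on 38 of 38 arrays, Gjb6 on 27, Gjb2 on 13, Gjc3 on 12 and Gjb1 on 8. Of the 60 combinations of a connexin and a group, 28 had a dim mean, and in 17 the deposited values were the same on all arrays of the group to within 0.001, which sets their spread near 0. Over all 9799 tested genes, 24.6% of such combinations were dim and 19.4% had identical values.

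The reporter genes followed the labels among the cortical lines. Aldh1l1 was highest in astrocytes (11.45), Cnp in mature oligodendrocytes (14.23), Pdgfra in progenitors (10.35, against dim levels in astrocytes, mature oligodendrocytes and neurons) and Snap25 in neurons (15.46). Olig2 was at 12.47 in cortical Olig2 cells and at 12.29 in progenitors. The populations were not pure, since Snap25 was still at 14.67 in progenitors and at 14.04 in mature oligodendrocytes, and the mean of 11 mature oligodendrocyte markers was 11.41 in progenitors. The lowest correlation over genes between arrays of 1 group was 0.8612 and lay in Recruited total RNA, whose arrays also spread most (median SD per gene 0.453, against 0.0304 in neurons). Actin probe sets at the 3′ end exceeded those at the 5′ end by 6.48 ± 0.47 (log2, SD, n = 3) in progenitors and by 2.69 to 4.57 in the other groups, and its part in the levels of the progenitors was not tested.

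The sequences around the transcription start are shown because 2 of the astrocyte connexins and both oligodendrocyte connexins moved in pairs over the 12 groups. They are 300 bases each, 250 before and 50 after the start, on the strand of the gene, from RefSeq on GRCm38.p6, and all 5 genes matched by symbol. Gja1 spans chr10:56377300-56390419, Gjb6 chr14:57123301-57133611, Gjb1 chrX:101376376-101385629 and Gjc3 chr5:137950992-137963098. Gjb2, at chr14:57098602-57104702, is the next protein-coding gene to Gjb6 in that annotation, on the same strand. The motifs were chosen after the windows had been seen. Of 6 motifs sought on both strands, matches are in capitals for ACAAAG and ACAATG, letters bound by SOX factors, and TGAGTCA, letters bound by AP-1. ACAAAG stood in 18.7% of 32851 windows of this length over all genes, ACAATG in 12.6% and TGAGTCA in 5.2%. The others were TATAAA (13.6% of windows), the GC box GGGCGG (35.7%) and the palindrome bound by NFI (0.0365%). Gjb1 has 4 windows, and the fourth is printed because it held the most matches.
Gja1 (chr10:56377050-56377349, plus strand): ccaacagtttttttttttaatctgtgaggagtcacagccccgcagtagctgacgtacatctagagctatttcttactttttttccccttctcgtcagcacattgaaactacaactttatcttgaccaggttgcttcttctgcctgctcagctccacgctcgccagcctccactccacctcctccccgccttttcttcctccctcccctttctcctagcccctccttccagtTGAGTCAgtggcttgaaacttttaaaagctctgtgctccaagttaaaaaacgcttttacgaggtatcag
Gjb6 (chr14:57133562-57133861, minus strand): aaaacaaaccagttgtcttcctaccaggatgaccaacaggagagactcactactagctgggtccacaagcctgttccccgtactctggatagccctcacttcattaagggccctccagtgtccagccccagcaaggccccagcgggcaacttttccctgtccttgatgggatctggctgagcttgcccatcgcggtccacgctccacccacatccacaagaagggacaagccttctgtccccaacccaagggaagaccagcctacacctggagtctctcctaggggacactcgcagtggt
Gjb1, window 4 of 4 (chrX:101383482-101383781, plus strand): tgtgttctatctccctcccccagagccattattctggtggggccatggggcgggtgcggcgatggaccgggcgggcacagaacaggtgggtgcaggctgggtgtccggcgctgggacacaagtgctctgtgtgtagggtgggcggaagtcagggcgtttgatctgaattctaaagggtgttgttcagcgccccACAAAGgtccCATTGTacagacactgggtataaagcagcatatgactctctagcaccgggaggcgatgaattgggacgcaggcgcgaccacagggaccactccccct
Gjc3 (chr5:137963049-137963348, minus strand): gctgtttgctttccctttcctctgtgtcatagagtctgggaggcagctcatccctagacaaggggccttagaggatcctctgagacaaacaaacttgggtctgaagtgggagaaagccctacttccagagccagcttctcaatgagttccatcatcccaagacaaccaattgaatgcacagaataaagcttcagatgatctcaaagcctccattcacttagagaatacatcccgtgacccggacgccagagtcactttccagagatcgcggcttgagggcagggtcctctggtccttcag
The Gja1 window held TGAGTCA at position -19 from the start. The Gjb1 window held ACAAAG at position -57 and ACAATG, on the opposite strand and so written CATTGT, at position -47, with no overlap between them. It also held TATAAA at position -29 and 3 GC boxes. Of the other Gjb1 windows, the first held ACAAAG at position -176 and the remaining ones none of the 6 motifs. The windows of Gjb6 and Gjc3 held none of the 6 motifs, and that of Gjb2 held 2 GC boxes. A match describes the letters of the window and nothing was measured at these sites.

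Gja1, the connexin found in astrocytes throughout the brain, was highest in cortical astrocytes, with levels of 14.29, 14.22 and 14.30. The bound RNA of Recruited tumours followed, at 13.43, 13.41 and 13.37. Total cortex RNA had 12.23, 12.29, 12.60, 12.33 and 12.22. These 3 groups did not overlap with one another. Cortical Olig2 cells had 11.96, 12.02 and 12.21, mature oligodendrocytes 10.02, 10.04 and 10.38, progenitors 9.49, 10.43 and 10.08, and neurons 7.47, 7.57 and 8.01. Total RNA of tumours had 12.62, 12.81 and 12.60 in Recruited, 11.95, 11.26 and 11.30 in Pdgf Cre and 11.02, 11.23 and 11.27 in Pdgf tumours. The lowest levels of all were in bound RNA of the other tumour variants, at 7.89, 7.30 and 7.46 in Pdgf Cre and at 6.95, 7.07 and 7.09 in Pdgf tumours. In the order of the 12 groups the arrays overlapped between neighbours in 3 places: Pdgf Cre and Pdgf total RNA, mature oligodendrocytes and progenitors, and neurons and Pdgf Cre bound RNA.

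Gjb6, the second main astrocyte connexin and a gene of mature grey matter astrocytes, was again highest in astrocytes, with 13.58, 13.21 and 13.46. Recruited bound RNA was next, with 11.12, 11.32 and 11.61, and no array overlapped with astrocytes or with the group below. Cortical Olig2 cells had 10.18, 10.04 and 10.15 and total cortex RNA had 8.78, 9.34, 9.68, 9.28 and 10.05. These overlapped, as did total cortex RNA and Recruited total RNA (9.47, 8.30 and 9.98). Lower still and overlapping in turn were mature oligodendrocytes (7.08, 7.08 and 7.16), Pdgf Cre total RNA (7.30, 6.31 and 6.65), progenitors (5.68, 6.77 and 7.24) and Pdgf total RNA (5.57, 5.23 and 7.15). Gjb6 was dim in neurons (5.10 on all arrays), in Pdgf Cre bound RNA (4.77, 4.26 and 4.25) and in Pdgf bound RNA (2.22, 2.29 and 2.29).

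Gjb2, the connexin shared by astrocytes and meninges, rose above the dim limit in 4 of the 12 groups only. Astrocytes had 9.21, 9.30 and 9.35. Recruited bound RNA had 8.51, 7.14 and 7.29, and Recruited total RNA had 9.01, 7.51 and 6.84. Total cortex RNA had 6.35, 6.39, 6.34, 6.32 and 5.24. Bound and total RNA of Recruited tumours overlapped, and both lay between astrocytes and total cortex RNA. In the other 8 groups the means were 2.08 to 3.50, and Gjb2 was dim in cortical Olig2 cells and in both kinds of RNA of Pdgf and Pdgf Cre tumours.

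Gjb1, the connexin of compact and noncompact myelin that is mutated in human Charcot-Marie-Tooth neuropathy, had its highest level in mature oligodendrocytes, at 9.76, 9.59 and 9.52. Cortical Olig2 cells had 7.99, 8.57 and 7.62. Recruited bound RNA had 4.25, 8.32 and 8.74, so that 2 arrays were near cortical Olig2 cells and 1 was dim. In the other 9 groups the mean was dim, from 4.11 in Recruited total RNA and 3.53 in progenitors down to 2.08, the lowest value of the array, in astrocytes, neurons and total cortex RNA. Gjc3, found in oligodendrocytes and in Schwann cells, was also highest in mature oligodendrocytes (9.60, 9.36 and 8.53), followed by cortical Olig2 cells (7.11, 7.50 and 7.82). Progenitors came next, with 6.05, 6.06 and 6.05, and these overlapped with Pdgf Cre bound RNA (5.62, 4.93 and 6.43). The deposited Gjc3 value of progenitors was 5.84 on all 3 arrays, so these arrays hold no spread of their own. The comparisons of Gjc3 with progenitors below rest on that value. Recruited bound RNA had 4.64, 5.85 and 6.05, with a dim mean of 5.51. The mean was dim in all groups left, with 4.13 in total cortex RNA and 2.08 in astrocytes and neurons.

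**Figure D1:**
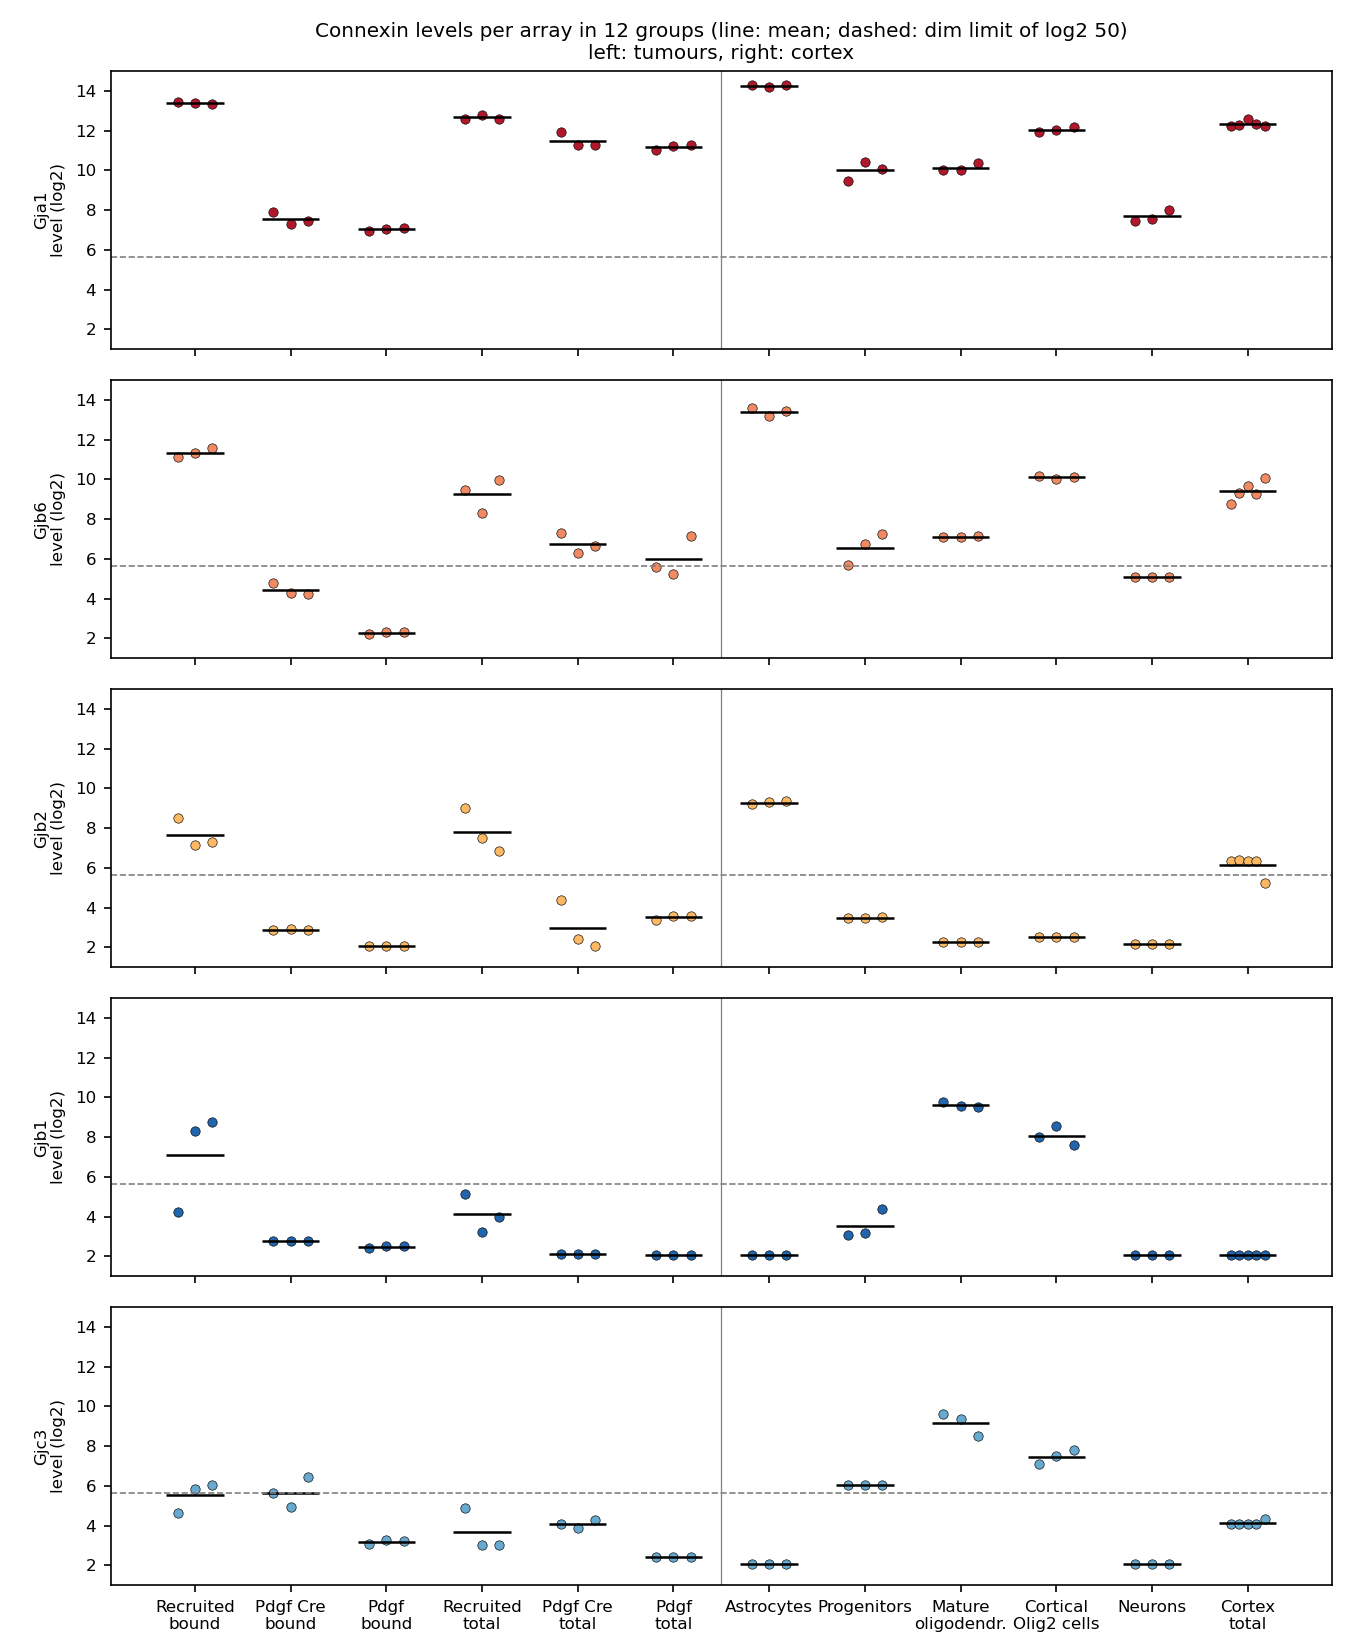
Log2 level of each connexin on every array (points) and the mean of each group (line), with tumour groups left and cortex groups right and the dim limit of 5.64 dashed. Gja1, Gjb6 and Gjb2 peak in astrocytes and are next highest in Recruited tumours, whereas Gjb1 and Gjc3 peak in mature oligodendrocytes.

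The cortex comparisons ask which cell types carry each connexin. Differences below are log2 differences of means with their standard error from 1 limma model over all arrays, and a gene counts as passed at 2-fold or more with its adjusted p below 0.05. In astrocytes against total cortex RNA, 4 of 5 connexins passed, where 61% of all tested genes passed (31.1% higher and 29.8% lower). Gja1 was 3.83-fold higher (1.94 ± 0.17, adjusted p = 1.32e-11), Gjb6 15.9-fold higher (3.99 ± 0.36, adjusted p = 2.8e-11) and Gjb2 8.94-fold higher (3.16 ± 0.38, adjusted p = 1.41e-08). Gjc3 was dim in both groups, and Gjb1 was at the lowest value in both. Many genes differed in every cortex comparison, so the number of connexins that passed says less than their direction and size.

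In mature oligodendrocytes against total cortex RNA the connexins split by cell type, and 5 of 5 passed (52.9% of all tested genes, 25.2% higher and 27.7% lower). Gjb1 was at least 15.8-fold higher (adjusted p = 4.05e-13) and Gjc3 at least 11.5-fold higher (adjusted p = 3.51e-14), whereas Gja1 was 4.55-fold lower, Gjb6 5-fold lower and Gjb2 at least 1.40-fold lower. A fold is given as at least a value where 1 of the groups was dim. Cortical Olig2 cells had the same oligodendrocyte connexins without the loss of Gja1 and Gjb6: 3 of 5 passed (56.1%; 29.5% higher and 26.6% lower), with Gjb1 at least 5.33-fold higher, Gjc3 at least 3.56-fold higher and Gjb2 at least 1.40-fold lower. There the difference was -0.27 ± 0.17 for Gja1 (95% interval -0.61 to 0.08, adjusted p = 0.148) and 0.70 ± 0.36 for Gjb6 (adjusted p = 0.0768). Beside this, the mean level of the 11 astrocyte markers measured was 8.67 in cortical Olig2 cells and 8.13 in total cortex RNA, with 9 and 8 of 11 above the dim limit, and the markers' part in Gja1 and Gjb6 was not tested.

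In progenitors, 5 of 5 passed against total cortex RNA (48.2%; 24.4% higher and 23.8% lower), with Gja1 5.04-fold lower, Gjb6 7.28-fold lower, Gjb2 at least 1.40-fold lower and Gjc3 at least 1.33-fold higher. Gjb1, the fifth, was dim in both groups, and its call (1.46 ± 0.55, adjusted p = 0.0189) was lost without progenitor replicate 3 (1.04, adjusted p = 0.138) and with spike-in scaling (1.27, adjusted p = 0.0927). In neurons, 4 of 5 passed (28.2%; 13.4% higher and 14.8% lower), all lower. Gja1 was 25.1-fold lower, Gjb6 at least 13.8-fold lower and Gjb2 at least 1.40-fold lower in neurons, and Gjc3 was dim on both sides. Gja1 was thus still above the dim limit in neurons, at 7.68 ± 0.28 (SD, n = 3), and in progenitors and mature oligodendrocytes, at 9.49 to 10.43 and 10.02 to 10.38. The astrocyte gene Aldh1l1 was at 7.63, 6.39 and 7.71 in the same 3 groups, and the part of astrocyte RNA in these Gja1 levels was not tested.

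Set against the oligodendrocyte lines directly, astrocytes differed in every connexin from mature oligodendrocytes (5 of 5 passed, 53.9% of genes; 25.8% higher and 28.2% lower) and from cortical Olig2 cells (5 of 5, 45.3%; 22.6% higher and 22.7% lower). Gja1 was 17.4-fold and Gjb6 79.6-fold higher in astrocytes than in mature oligodendrocytes, and Gjb2 at least 12.5-fold higher. Gjb1 was at least 15.8-fold and Gjc3 at least 11.5-fold lower in astrocytes. Against cortical Olig2 cells, astrocytes had 4.61-fold more Gja1, 9.81-fold more Gjb6 and at least 12.5-fold more Gjb2. Against progenitors 5 of 5 passed (51.3%; 24.6% higher and 26.8% lower), with Gja1 19.3-fold and Gjb6 116-fold higher in astrocytes, Gjb2 at least 12.5-fold higher and Gjc3 at least 1.33-fold lower. Gjb1 was dim on both sides there, and its call was lost on leaving out any of the 3 astrocyte arrays (adjusted p = 0.0665 to 0.0676) or progenitor replicate 3 (adjusted p = 0.178), on the values as deposited (-1.26, adjusted p = 0.0765), with a common median (-0.82, adjusted p = 0.244) and with no filter on dim genes (adjusted p = 0.0515). Progenitors against mature oligodendrocytes, the comparison of immature with mature cells of the lineage, had 3 of 5 passed (38.7%; 18.8% higher and 19.9% lower): Gjc3 was 8.64-fold and Gjb1 at least 15.8-fold lower in progenitors, and Gjb2 was dim in both. Gjb2 missed with a common median (0.93, adjusted p = 0.0728) and with spike-in scaling (1.09, adjusted p = 0.0518). Gja1 differed by -0.15 (95% interval -0.53 to 0.24, adjusted p = 0.526) and Gjb6 by -0.54 (interval -1.36 to 0.28, adjusted p = 0.252) between progenitors and mature oligodendrocytes, and both passed only with a common median (-1.01 and -1.15).

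The tumour comparisons ask how Olig2 cells of a glioma differ from Olig2 cells of the adult cortex. The variants went apart. In Pdgf tumours the bound RNA had 4 of 5 connexins lower than cortical Olig2 cells and none higher (32% of all tested genes passed, 16% higher and 16% lower). Gja1 was 32.6-fold lower (-5.03 ± 0.19), Gjb6 at least 22.3-fold lower, Gjb1 at least 5.33-fold lower and Gjc3 at least 3.56-fold lower. Pdgf Cre tumours had the same 4 lower (36.1% passed, 17.7% higher and 18.3% lower): Gja1 22.9-fold (-4.52 ± 0.19), Gjb6 at least 22.3-fold, Gjb1 at least 5.33-fold and Gjc3 3.51-fold (-1.81, adjusted p = 0.00011). Gjb2 was dim in both tumours and in cortical Olig2 cells.

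In Recruited tumours the astrocyte connexins were instead higher than in cortical Olig2 cells, and 4 of 5 connexins passed (27.5% of genes; 12.9% higher and 14.6% lower). Gja1 was 2.53-fold higher (1.34 ± 0.19, adjusted p = 8.19e-07), Gjb6 2.34-fold higher (1.23 ± 0.40, adjusted p = 0.0119) and Gjb2 at least 4-fold higher (adjusted p = 3.94e-11). Gjc3 was at least 3.56-fold lower (adjusted p = 5.93e-05). Gjb1 did not pass (-0.96 ± 0.61, adjusted p = 0.202), but it was lower and passed without Recruited bound replicate 3 (-1.78, adjusted p = 0.0153) or replicate 2 (-1.56, adjusted p = 0.05, just under the limit). Of the 11 astrocyte markers 4 were also higher and 2 lower in the bound RNA of Recruited tumours than in cortical Olig2 cells (median 0.83). Fewer marked cells of a type and less RNA per cell cannot be told apart in these bulk samples. The 3 tumour comparisons share the cortical Olig2 arrays.

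Between the tumour variants, 5 of 5 connexins were higher in Recruited than in Pdgf bound RNA (25.8% of genes passed, 12.8% higher and 13% lower). Gja1 was 82.5-fold higher (6.37), Gjb6 at least 52.3-fold, Gjb2 at least 4-fold and Gjb1 at least 2.75-fold higher, and Gjc3 was dim on both sides. Against Pdgf Cre bound RNA 4 of 5 were higher in Recruited (34.5% passed, 17.5% higher and 17% lower), with Gja1 58.0-fold (5.86), Gjb6 at least 52.3-fold, Gjb2 at least 4-fold and Gjb1 at least 2.75-fold higher, while Gjc3 differed by -0.15. The size for Gjb1 rested on single arrays: against Pdgf tumours the log2 difference of 4.62 was 6.05 without Recruited bound replicate 1, 4.01 without replicate 2 and 3.80 without replicate 3, and against Pdgf Cre tumours the difference of 4.33 was 5.76, 3.72 and 3.51. Pdgf Cre and Pdgf bound RNA were closer, and 2 of 5 passed (16.6%; 7.77% higher and 8.87% lower): Gjc3 was at least 1.01-fold higher in Pdgf Cre, and Gjb6 was dim on both sides. Gja1 differed by 0.51 between them (adjusted p = 0.0342), under the 2-fold limit.

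Markers of other cells moved with these differences. The mean level of the 11 astrocyte markers per array was 9.07, 9.66 and 9.13 in Recruited bound RNA, 6.81, 6.60 and 6.49 in Pdgf Cre bound RNA and 6.26 to 6.30 in Pdgf bound RNA, against 8.64 to 8.70 in cortical Olig2 cells. Their summed linear signal was 39500 to 60200 in Recruited, 10100 to 18100 in Pdgf Cre and 8860 to 12800 in Pdgf bound RNA, against 39400 to 41100 in cortical Olig2 cells. Above the dim limit were 10, 6 and 5 of the 11 markers in the 3 tumour groups and 9 in cortical Olig2 cells. Aldh1l1 was at 9.21 in Recruited bound RNA and dim in Pdgf Cre (3.08) and Pdgf bound RNA (2.68), against 9.02 in cortical Olig2 cells. In bound RNA, astrocyte markers and Gja1, Gjb6 and Gjb2 were thus high and low in the same tumour groups. In total RNA the marker means lay closer together, at 8.04 in Recruited, 7.85 in Pdgf Cre and 7.54 in Pdgf tumours. There Gja1 was at 12.68, 11.50 and 11.18, Gjb6 at 9.25, 6.75 and 5.98 and Gjb2 at 7.79, 2.95 and 3.50. Within Recruited bound RNA, Gjb2 was highest (8.51) on the array lowest in astrocyte markers (9.07). The part of astrocyte RNA was not tested.

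For the oligodendrocyte connexins the mean of 11 mature oligodendrocyte markers was 11.25, 12.60 and 13.47 on the 3 arrays of Recruited bound RNA, and the array lowest in these markers was also the one with Gjb1 at 4.25. It was 9.0, 8.62 and 7.02 in Pdgf Cre bound RNA and 6.54 to 6.87 in Pdgf bound RNA, against 13.10 to 13.26 in cortical Olig2 cells. The summed signal of these markers was 55200 to 165000 in Recruited, 4280 to 10300 in Pdgf Cre and 4970 to 6800 in Pdgf bound RNA, against 132000 to 143000 in cortical Olig2 cells. In Recruited bound RNA Gjc3 (4.64, 5.85 and 6.05) followed the order of these markers. In Pdgf Cre bound RNA the array lowest in them (7.02) had the highest Gjc3 (6.43, against 5.62 and 4.93). In Recruited total RNA replicate 3 was highest in them (10.85), with Gjb1 at 3.96 and Gjc3 at 3.04. Replicate 1 of that group, at 9.46 in the markers, had the highest Gjb1 (5.15) and Gjc3 (4.89), both dim. The markers' part in Gjb1 and Gjc3 was not tested.

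**Figure D2:**
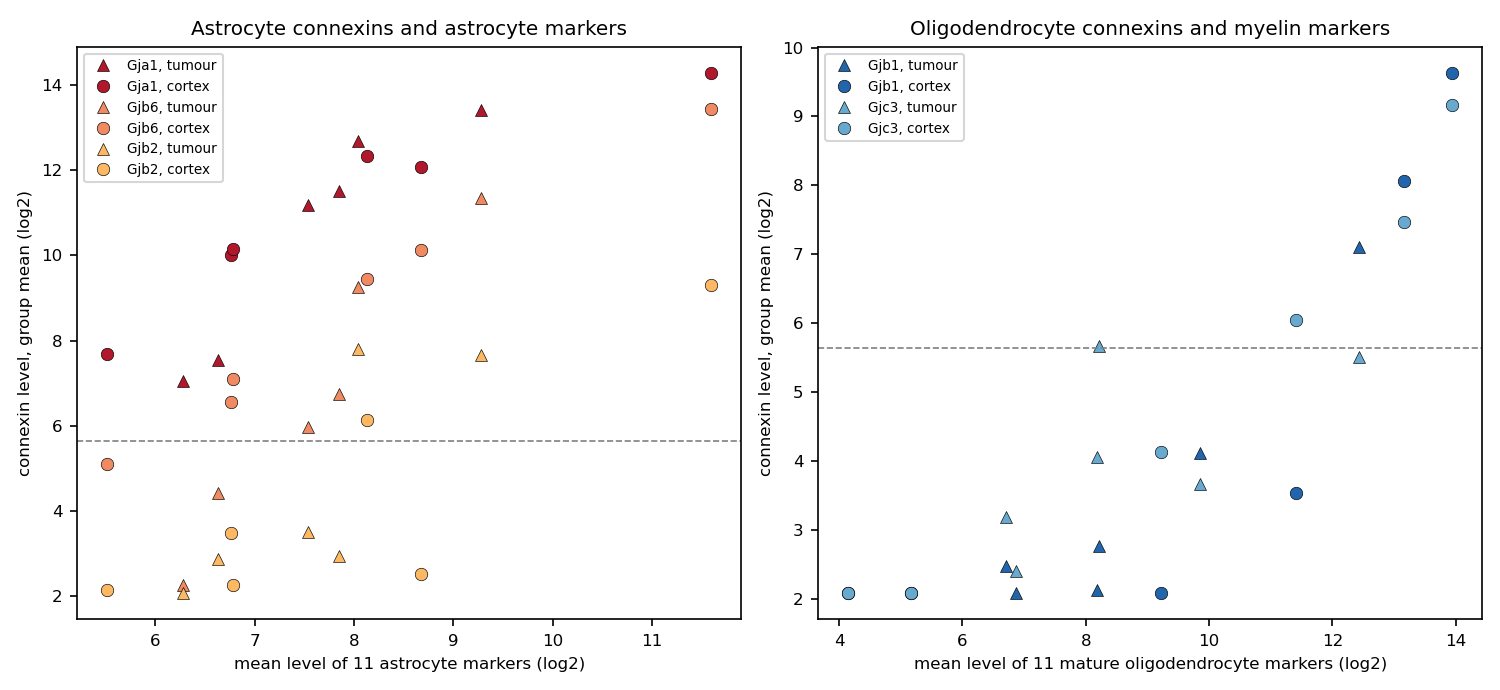
Group mean level of each connexin (log2, vertical) against the mean level of 11 astrocyte markers (left) or 11 mature oligodendrocyte markers (right), with triangles for the 6 tumour groups, circles for the 6 cortex groups and the dim limit dashed. Connexin and marker levels go up together over the 12 groups, with Pearson r of 0.88 for Gja1, 0.90 for Gjb6 and 0.80 for Gjb2 on the left and 0.86 for Gjb1 and 0.91 for Gjc3 on the right.

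Bound over total RNA asks whether a connexin is richer in the marked cells than in the tissue around them. In Pdgf tumours 3 of 5 passed (32.2% of genes; 16.9% higher and 15.3% lower) and in Pdgf Cre tumours 3 of 5 (38%; 20% higher and 18.1% lower). Gja1 was 17.6-fold lower in bound than in total RNA of Pdgf tumours (-4.14) and 15.5-fold lower in Pdgf Cre tumours (-3.95). Gjb6 was at least 1.27-fold lower in Pdgf and at least 2.16-fold lower in Pdgf Cre bound RNA, and without Pdgf total replicate 3 its log2 difference of -3.72 in Pdgf tumours was -3.13. Gjb2 was dim in both kinds of RNA of Pdgf tumours. With a common median, Gjb1 (1.49) and Gjc3 (1.04), dim there too, passed as well in Pdgf tumours, which made 5 of 5. Gjc3 was at least 1.01-fold higher in bound RNA of Pdgf Cre tumours (1.60 ± 0.37, adjusted p = 0.000442), a call lost on the values as deposited (0.20, adjusted p = 0.671) and with arrays scaled to their spike-in probe sets (0.38, adjusted p = 0.594).

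In Recruited tumours 3 of 5 passed (44.3%; 24.1% higher and 20.2% lower), all higher in bound than in total RNA. Gjb6 was 4.30-fold higher (2.11 ± 0.40, adjusted p = 3.88e-05) and Gjb1 at least 2.75-fold higher (2.99 ± 0.61, adjusted p = 0.000103), with arrays that overlapped, and Gjc3 was dim on both sides. Fitted on these 6 arrays alone, Gjb1 (adjusted p = 0.141) and Gjc3 (adjusted p = 0.0835) did not pass, which left 1 of 5, and Gjc3 also missed on the values as deposited (0.71, adjusted p = 0.0981) and with spike-in scaling (0.61, adjusted p = 0.324). The Gjb1 difference of 2.99 was 4.42 without Recruited bound replicate 1, 2.38 without replicate 2 and 2.17 without replicate 3. Gja1 was 1.66-fold higher in bound RNA (0.73 ± 0.19, adjusted p = 0.00124), under the 2-fold limit. Scaling every array to a common median, which put the median difference of all genes at 0.85 where it had been 0.13, gave Gja1 1.97 and a pass. Gjb2 differed by -0.14 between bound and total RNA (adjusted p = 0.791).

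The differences between these ratios were tested themselves. The ratio of Gja1 was higher in Recruited than in Pdgf tumours by 4.86 ± 0.27 (adjusted p = 3.71e-15) and than in Pdgf Cre tumours by 4.68 ± 0.27. That of Gjb6 was higher by 5.82 ± 0.57 (adjusted p = 1.16e-09) and by 4.43 ± 0.57 in the fit. Gja1 was above the dim limit in all 6 groups, whereas Gjb6 was dim in Pdgf and Pdgf Cre bound RNA, so its sizes are set by dim values: bound over total was known only as at least 1.27-fold lower in Pdgf and at least 2.16-fold lower in Pdgf Cre tumours, against 4.30-fold higher in Recruited tumours. In all, 3 of 5 passed against Pdgf (30% of genes; 16% higher and 14% lower) and 3 of 5 against Pdgf Cre (26.7%; 13.8% higher and 12.9% lower). The third, Gjb1, was higher by 2.58 ± 0.87 (adjusted p = 0.0176) and by 2.33 ± 0.87 (adjusted p = 0.0342), with dim levels in 5 of the 6 tumour groups. Its call against Pdgf was lost on the values as deposited (1.77, adjusted p = 0.119), with a common median or spike-in scaling (1.57 each), with the 4 groups compared alone (adjusted p = 0.241), without Recruited bound replicate 2 (1.97, adjusted p = 0.0687) or 3 (1.76, adjusted p = 0.0846), and without Recruited total replicate 2 (2.14, adjusted p = 0.0555). Against Pdgf Cre it was lost under the same settings, with same-numbered bound and total arrays kept as pairs (adjusted p = 0.0561), and on leaving out any 1 of 10 of the 12 arrays (adjusted p = 0.0505 to 0.15), all but replicate 1 of Recruited bound and of Recruited total RNA. Without Recruited bound replicate 1 the 2 differences were 4.01 and 3.76. Gjb2 did not pass against Pdgf (1.28, adjusted p = 0.0908) but passed with the pairs kept (adjusted p = 0.00793) and without Recruited total replicate 1 (1.89, adjusted p = 0.00657), where Gjc3 also passed (1.68) and the count was 5 of 5. Gjb2 passed as well on the values as deposited (1.84) and with a common median (1.64), and Gjc3 without Recruited bound replicate 1 (1.5). Gjc3 had dim means in bound and total RNA of both variants, and Gjb2 in both kinds of RNA of Pdgf tumours. These passes thus rest on dim levels.

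Between Pdgf Cre and Pdgf tumours 0 of 5 ratios differed by limma (12.3% of genes passed, 6.04% higher and 6.3% lower), with Gjb6 at 1.39 ± 0.57 (adjusted p = 0.0884) and Gjb2 at 1.37 ± 0.61 (adjusted p = 0.123). With same-numbered arrays kept as pairs both passed (adjusted p = 0.0367 for Gjb6 and 0.00996 for Gjb2). Gjb2 also passed without Pdgf Cre total replicate 1 (2.07) and Gjb6 without Pdgf total replicate 2 (1.77) and on the values as deposited (1.60). Gjb2 was dim in bound and total RNA of both variants, and Gjb6 was dim in the bound RNA of both. The sizes and calls of this ratio thus rest on dim levels for Gjb6 and Gjb2. Set against the ratio of cortical Olig2 cells to total cortex RNA, the mean ratio of the 3 tumour variants differed for 5 of 5 connexins (43.8%; 21.8% higher and 22.1% lower): by -2.19 ± 0.20 for Gja1, -2.01 ± 0.43 for Gjb6, -4.63 ± 0.65 for Gjb1 and -1.93 ± 0.39 for Gjc3, and by 3.07 ± 0.46 for Gjb2. That mean joins variants that went opposite ways for Gja1 and Gjb6. Most of these sizes rest on dim levels and are no bounds: Gjb2 was dim in cortical Olig2 cells and in 4 of the 6 tumour groups, Gjb1 and Gjc3 were dim in total cortex RNA and in 5 of the 6 tumour groups each, and Gjb6 was dim in 2 of the tumour groups.

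**Figure D3:**
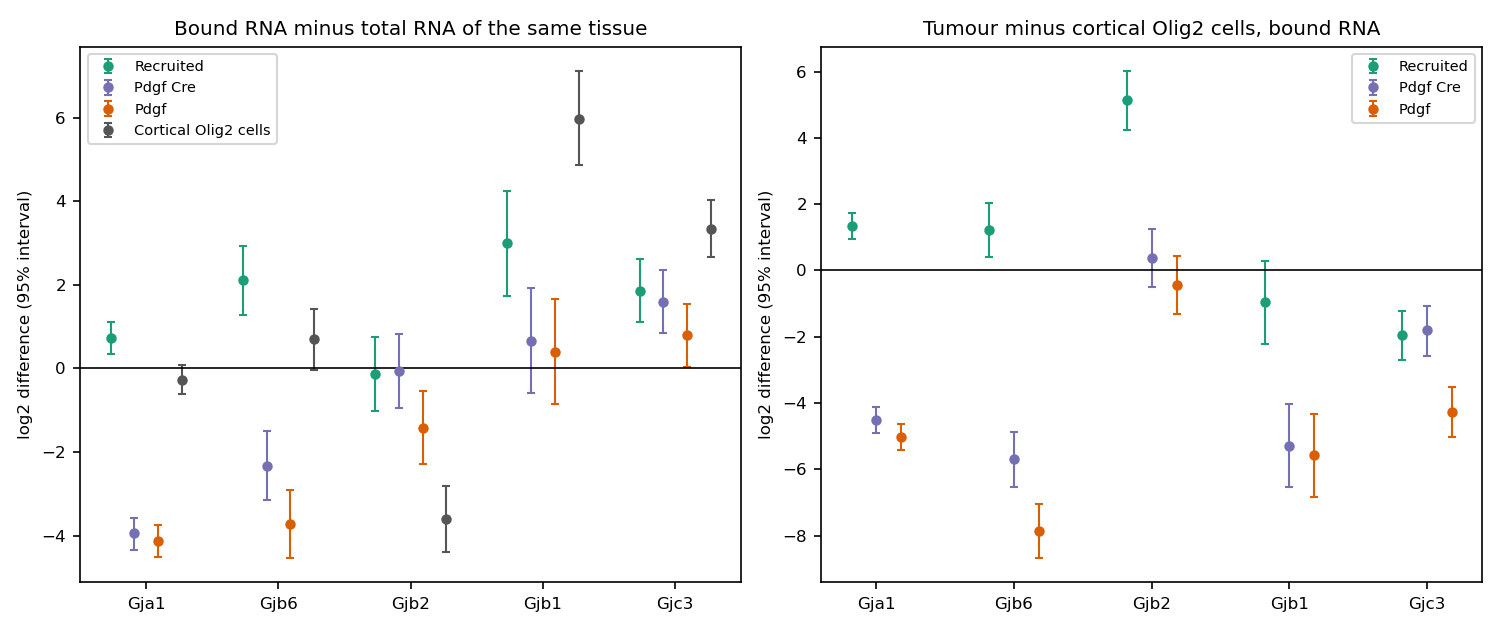
Log2 differences with 95% intervals from the limma model, left for bound minus total RNA of the same tissue in each tumour variant and in cortical Olig2 cells, right for bound RNA of each tumour variant minus cortical Olig2 cells. Gja1 and Gjb6 lie above 0 in Recruited tumours and below 0 in Pdgf Cre and Pdgf tumours on both sides, and differences between 2 dim levels are drawn as fitted.

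Total RNA of tumours against total cortex RNA shows the whole tissue. In Pdgf tumours 4 of 5 passed, all lower (50.5% of genes; 25% higher and 25.5% lower): Gja1 was 2.23-fold lower (-1.16 ± 0.17), Gjb6 10.9-fold lower and Gjb2 at least 1.40-fold lower, and Gjc3 was dim on both sides. The Gja1 difference stood near the limit and, on the values as deposited, at -1.0 no longer passed. In Pdgf Cre tumours 2 of 5 passed (47.9%; 22.8% higher and 25% lower), with Gjb6 6.37-fold lower and Gjb2 at least 1.40-fold lower. Gja1 was 1.78-fold lower (adjusted p = 7.12e-05), and passed without Pdgf Cre total replicate 1 (-1.05), on the values as deposited (-1.08), with a common median (-1.70) and with spike-in scaling (-1.04). In Recruited tumours 2 of 5 passed (50.2%; 23.7% higher and 26.4% lower). Gjb2 was 3.16-fold higher (1.66 ± 0.38, adjusted p = 0.000336) and Gjb1 was dim in both, whereas Gja1 (0.35, adjusted p = 0.0641) and Gjb6 (-0.18, adjusted p = 0.663) did not pass.

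The Gjb2 difference in Recruited total RNA was 1.05 without replicate 1 of that group, the array with 9.01, and without it Gjc3, dim on both sides, was lower and passed (-1.09). That array also had the highest mean of 11 microglia and macrophage markers, at 9.56 against 7.55 and 6.23 on the other arrays. The 8 leptomeningeal and fibroblast markers, of cells known to hold connexin 26, had mean levels of 4.59, 7.08 and 5.65 on the 3 arrays of Recruited total RNA, with 4 of 8 above the dim limit, against 3.78 to 3.91 in total cortex RNA with 2 of 8 above it. Their summed signal was 803 to 20000 in Recruited total RNA and 324 to 432 in total cortex RNA. Within Recruited total RNA, replicate 1, with Gjb2 at 9.01, was lowest in these markers (803). Replicate 2, with Gjb2 at 7.51, was highest in them (20000). In Recruited bound RNA, where Gjb2 was at 7.65, 0 of the 8 markers were above the dim limit. The part of these cells in Gjb2 of total RNA was not tested. Single arrays also moved 2 other sizes: without Pdgf Cre total replicate 1 the Gjb2 difference of -3.18 was -3.89, and without Pdgf total replicate 3 the Gjb6 difference of -3.44 was -4.03.

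Against cortical progenitors, the mean of the 3 tumour variants in bound RNA differed in 1 of 5 connexins (36.9% of genes passed, 17.9% higher and 19.1% lower), Gjc3, which was at least 1.33-fold lower (adjusted p = 0.000545), with a dim tumour mean of 4.79 against 6.05 in progenitors. The deposited Gjc3 values of progenitors were identical on all arrays. Gja1 differed by -0.67, a mean of levels of 13.41 in Recruited, 7.55 in Pdgf Cre and 7.04 in Pdgf tumours against 9.49 to 10.43 in progenitors. Without Recruited bound replicate 1, Gjb1 passed as well (1.06, adjusted p = 0.000477).

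Other members of the family were nearly silent on these arrays. Of 15 other connexin genes listed, 9 had a probe set and 1 was tested, Gjc1 (connexin 45), a connexin of vessels and neurons. Gjc1 was above the dim limit only in Pdgf Cre total RNA, at 7.67 ± 0.23 (SD, n = 3). It was at the lowest value in the bound RNA of the same tumours and was at least 4.08-fold higher in Pdgf Cre total RNA than in total cortex RNA. Gjc1 passed the filter on low values through that group, so a difference there follows from the selection and is only descriptive. The other 8, among them the neuronal Gjd2 (connexin 36), had dim means in all 12 groups, and Gjd2 was highest in neurons, at 3.91. Of 3 pannexins, which form large-pore channels without docking, Panx1 was tested. Panx1 was 2.80-fold higher in Pdgf bound RNA than in cortical Olig2 cells (1.48 ± 0.22, adjusted p = 1.6e-06), and did not pass in Pdgf Cre (0.73) or Recruited bound RNA (0.96). In astrocytes Panx1 was 3.53-fold lower than in total cortex RNA.

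Of 17 listed symbols of partners and regulators of connexins, 14 were measured and 10 tested. Nov, listed but not found, is an older symbol of Ccn3, which was listed too and measured. In astrocytes 4 of the 10 were higher and 3 lower than in total cortex RNA (median 0.34, against 0.01 over all tested genes). Of all tested genes 31.1% were higher and 29.8% lower there, so these counts are near the share of all genes. Hepacam, an adhesion protein that holds connexin 43 at astrocyte contacts, was 24.6-fold higher, and Mlc1, a membrane protein of the same astrocyte complexes, was 14.1-fold higher. Hepacam was also higher than in total cortex RNA in mature oligodendrocytes (12.2-fold), cortical Olig2 cells (5.68-fold) and progenitors (3.64-fold). Ccn3, a secreted protein that binds the tail of connexin 43, was 60.8-fold lower in astrocytes. In bound RNA against cortical Olig2 cells 0 were higher and 2 lower in Pdgf tumours (16% and 16% of all tested genes). In Pdgf Cre tumours 1 was higher and 4 lower (17.7% and 18.3%), and in Recruited tumours 0 were higher and 1 lower (12.9% and 14.6%).

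Mlc1 was high and low in the same tumour groups as Gja1 and Gjb6. Its level was 11.17 in Recruited bound RNA, 4.75 in Pdgf Cre and 4.19 in Pdgf bound RNA, against 10.49 in cortical Olig2 cells. Mlc1 was at least 46-fold higher in Recruited than in Pdgf bound RNA, and its bound over total ratio was higher by 4.88 ± 0.67. Hepacam was at 10.26 in Recruited, 9.05 in Pdgf Cre and 9.37 in Pdgf bound RNA, against 9.36 in cortical Olig2 cells, and the difference between Recruited and Pdgf was 0.90 ± 0.29 (adjusted p = 0.0115), under 2-fold. Ccn3 was dim in the bound RNA of all 3 tumour variants and at 7.61 in cortical Olig2 cells. Cav1, the caveolar coat protein, was 69.2-fold higher in progenitors than in total cortex RNA (6.11 ± 0.49, adjusted p = 3.84e-12). Tjp1, the scaffold ZO-1 that binds connexin tails, was 2.65-fold higher in Recruited than in Pdgf bound RNA (1.41 ± 0.30, adjusted p = 0.00028).

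**Figure D4:**
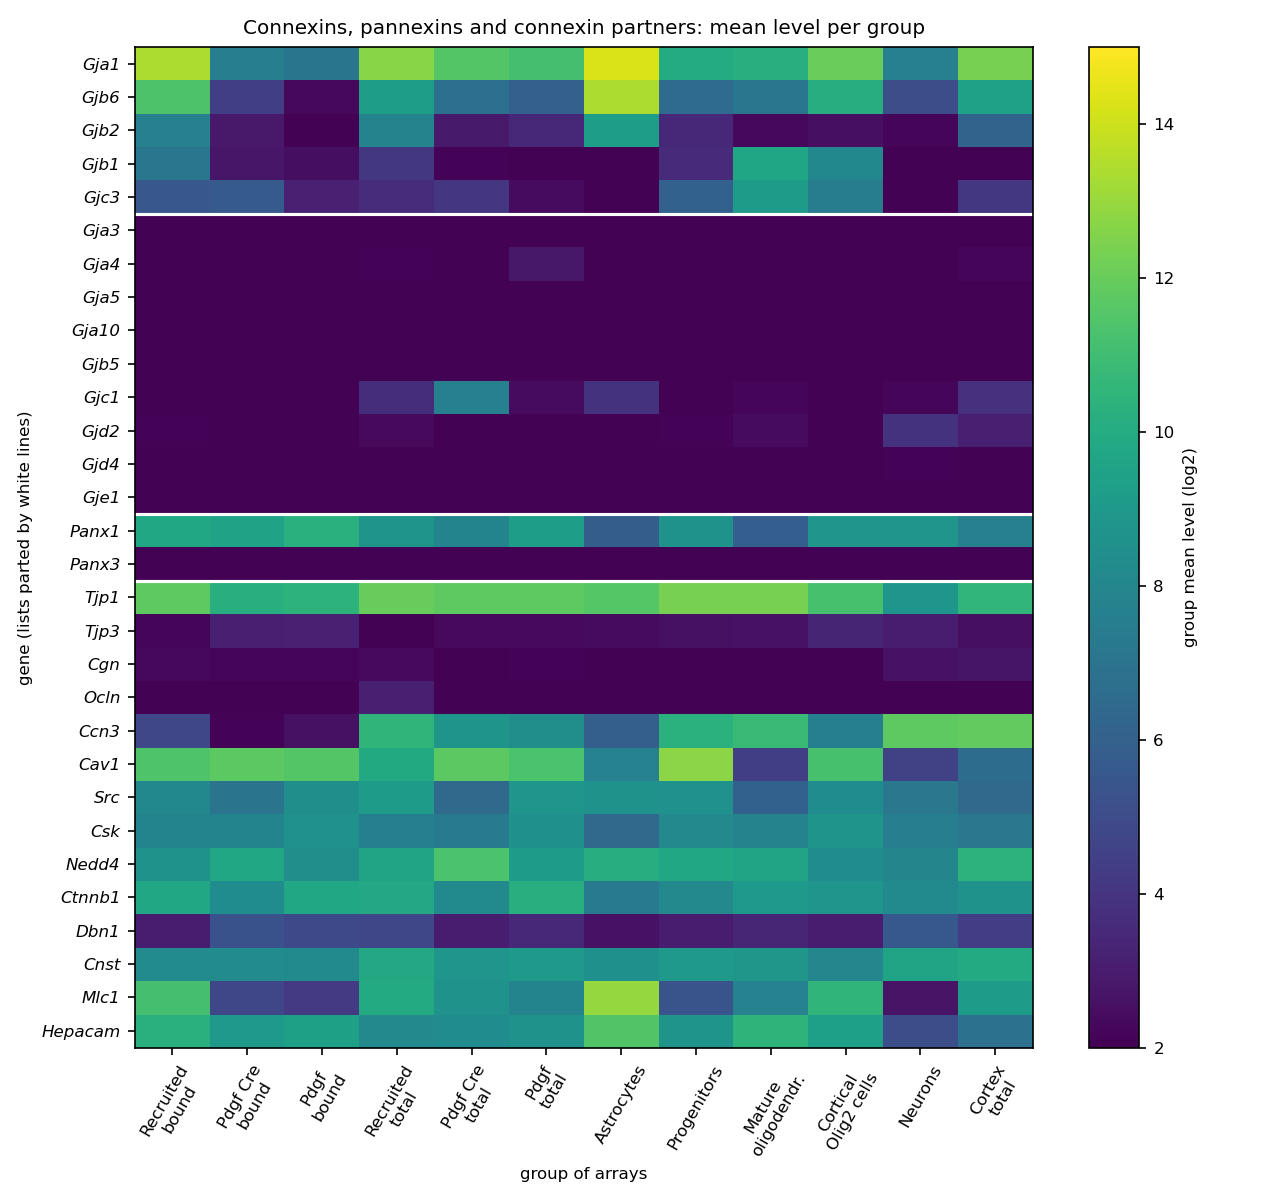
Mean log2 level in each of the 12 groups (columns, tumours left and cortex right) of the 5 glial connexins, 9 other connexins, 2 pannexins and 14 partners and regulators (rows in blocks parted by white lines), from dark (low) to light (high). Apart from Gjc1 in Pdgf Cre total RNA the other connexins stay dim, and Mlc1 is light where Gja1 and Gjb6 are light.

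Over the 12 group means the connexins fell into an astrocyte set and an oligodendrocyte set. Pearson r was 0.93 between Gja1 and Gjb6, 0.79 between Gja1 and Gjb2, 0.80 between Gjb6 and Gjb2 and 0.85 between Gjb1 and Gjc3, and -0.31 to 0.28 between the sets. These values describe 12 groups that include bound and total RNA of the same tissue, and dim levels enter them. The same measure was taken over the tested genes, leaving out the 5 connexins and genes with clone or predicted-gene names. Of these, the 5 most like Gja1 were Fam107a (0.961), Mlc1 (0.958), Slco1c1 (0.942), Lgi4 (0.93) and Nupr1 (0.917). Those most like Gjb6 were S1pr1 (0.945), Slc39a12 (0.94), Etnppl (0.938), Cth (0.92) and Mlc1 (0.914), so Mlc1 was on both lists. Those most like Gjb2 were Amigo2 (0.916), Notch2 (0.915), Aox1 (0.913), Sec63 (0.887) and Slc22a4 (0.887). For Gjb1 they were Hapln2 (0.982), Slc45a3 (0.981), Tprn (0.971), Adamtsl4 (0.969) and Adgrv1 (0.967). For Gjc3 they were Ppp1r14a (0.945), Elovl7 (0.936), Atp10b (0.936), Opalin (0.919), which is a myelin gene, and Polr3e (0.918).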

How the data were processed

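RNA was hybridized to mouse expression arrays, 38 in all. The deposited values are log2 signals from GCRMA, per the submitters' processing notes, with no version given. The array chip definition and genome build are not given in the sources used here. Each group has its own lowest deposited value, 2.02 to 2.12, as a separate GCRMA run per group would leave, which is not stated. The main scale is therefore their quantile normalization over all arrays. Of 16395 probe sets, 15644 had 1 gene, 687 had none, 64 were array controls and 0 had several. Symbols of 15617 genes matched RefSeq. The 9799 genes above a linear signal of 50 (log2 5.64) on 3 or more arrays were tested, and 5845 were removed.

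Differences were fitted with limma 3.58.1 in R 4.3.3 as 1 model of 12 groups (26 residual degrees of freedom, empirical Bayes), with Benjamini-Hochberg adjustment over the 9799 genes in each of 26 comparisons. A call needs 2-fold or more and an adjusted p below 0.05. Where 1 group was dim, the fold was computed against the dim limit. The procedure was tested on simulated data. The number of arrays limits the precision.

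Bound and total arrays of 1 tumour variant with the same number deviated together from their group means (correlation over genes 0.266 to 0.626 in 9 pairs, against -0.486 to 0.0868 in 18 pairs of other numbers), so the number was taken to pair them, and a fit with the pair as a block is given where it changes a call. The same fit also blocked the cortex arrays by number. The pairing comes from the numbers in the titles.

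The connexins, gene lists and markers were chosen with earlier results of these data known. All 5 connexins were tested in every comparison, but not every value is given above. Tests quoted for the listed partners, pannexins and other connexins came from the genes with the largest difference, up to 4 per list and comparison. Only some of these are quoted. For each connexin the 5 genes with the most similar group means are given, leaving out the connexins and genes with clone or predicted-gene names. The alternatives were the deposited values, a common median, spike-in scaling, other filters on dim genes, an intensity trend with a robust prior, the groups compared alone, the block, and leaving out each array.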

Additional observations from a re-analysis of the deposited data

Results flagged for a closer look

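Of the groups, only total cortex RNA, with 5 arrays, was large enough to look for an array that stands apart from the rest, and 4 of its connexin measurements had enough spread for it. In 3 of them 1 array stood apart: Gja1 at 12.60 (the others 12.22 to 12.33), Gjb2 at 5.24 (the others 6.32 to 6.39) and Gjc3 at 4.32 (the others 4.07 to 4.10). Chance alone puts about 1 in 20 groups past this limit. Gja1 stood apart on replicate 3 and Gjb2 and Gjc3 on replicate 5, whose mean of mature oligodendrocyte markers was 8.86 against 9.20 to 9.40 on the others.

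The ratio of bound to total RNA differed between tissues by the test of the difference itself. Against cortical Olig2 cells over total cortex RNA, the mean of the 3 tumour variants was lower for Gja1 (-2.19), Gjb6 (-2.01), Gjb1 (-4.63) and Gjc3 (-1.93) and higher for Gjb2 (3.07). Recruited minus Pdgf tumours gave 4.86 for Gja1, 5.82 for Gjb6 and 2.58 for Gjb1. Recruited minus Pdgf Cre tumours gave 4.68 for Gja1, 4.43 for Gjb6 and 2.33 for Gjb1. Of these, the Gja1 values for the 3 tumour variants rest on levels above the dim limit throughout, and those of the other connexins rest in part on dim levels.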

How the results depend on the processing

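No connexin difference that passed changed sign under any setting tried. Counts of connexins that passed moved by over 1.5 times in 5 comparisons, and by less in others. In Pdgf bound over total RNA the count was 5 with a common median, against 3. In Recruited bound over total RNA it was 1 with the compared groups alone, against 3. For the ratio of Pdgf Cre minus Pdgf tumours it was 1 on the values as deposited and 2 with the replicate block, against 0, and leaving out 1 array gave 0 to 1. Leaving out 1 array gave 2 to 5 for Recruited minus Pdgf, against 3, and 1 to 2 for the tumour mean over progenitors, against 1. It gave 4 to 5 in progenitors over total cortex RNA, astrocytes over progenitors (both 5) and Recruited over cortical Olig2 cells (4), and 2 to 3 in Pdgf Cre and Recruited total RNA over total cortex RNA (both 2) and for Recruited minus Pdgf Cre (3). Progenitors over mature oligodendrocytes had 4 with a common median and 2 with spike-ins, against 3. For single connexins, leaving out 1 array in turn left 1052 results on the same side of the threshold, passed or not, lost 18 calls and gained 10. The replicate block left 124 on the same side, lost 3 (Gjb1 in the ratio of Recruited minus Pdgf Cre, in progenitors over total cortex RNA with adjusted p = 0.0629 and in astrocytes over progenitors with 0.0627) and gained the 3 ratio calls given above. The block also grouped the cortex arrays by number, although cortex numbers did not pair the arrays (correlation -0.189 to 0.214 in 15 pairs). The lost calls in progenitors over total cortex RNA and astrocytes over progenitors come from a fit with that cortex block. Scaling moved the median of all genes by -0.38 to 0.66 as deposited, -0.65 to 1.00 with a common median and -0.97 to 0.34 with spike-ins. Calls between groups that were both dim were left out of the next count. Of the 80 called connexin differences that remained, 18, 24 and 14 moved by over 1.5 times. The count of all genes moved by more than that with a common median in Pdgf (5701 against 3157) and Pdgf Cre bound over total RNA (5638 against 3726) and in neurons over cortex (5194 against 2765; 4768 as deposited), and for ratios with spike-ins (347 against 1209 for Pdgf Cre minus Pdgf, 1556 against 2943 for Recruited minus Pdgf, 1414 against 2617 for Recruited minus Pdgf Cre) and with the compared groups alone (1744 and 1713 for the Recruited ratios). The share of calls that were higher moved by over 10 percentage points in many comparisons. In bound over total RNA it was 84.0% with a common median, 18.6% as deposited and 22.6% with spike-ins in Pdgf (against 52.4%), 80.2%, 24.1% and 33.7% in Pdgf Cre (52.5%) and 76.7%, 32.4% and 27.7% in Recruited tumours (54.4%). With a common median it was 79.5% in neurons (47.5%), 66.7% in mature oligodendrocytes (47.6%), 62.9% in astrocytes (51%), 33.7% in Pdgf total (49.5%), 29.7% in Pdgf Cre total (47.7%) and 31.8% in Recruited total RNA (47.3%), all over total cortex RNA, 62.6% in astrocytes over progenitors (47.9%), 64.9% in astrocytes over cortical Olig2 cells (49.9%), 26.6% in progenitors over mature oligodendrocytes (48.6%), 61.6% in Pdgf over cortical Olig2 cells (50%), 58.5% in the tumour mean over progenitors (48.3%) and 73.5% for the ratio of the tumour mean minus cortical Olig2 cells (49.7%). As deposited these were 75.4% in neurons, 65.6% in Pdgf total, 69.4% in Recruited total RNA, 35.5% in progenitors over mature oligodendrocytes and 35.9% for that ratio, with 63.4% in Recruited over cortical Olig2 cells (47%), 29.7% in Pdgf Cre over Pdgf (46.7%), 70.7% in Recruited over Pdgf Cre bound RNA (50.7%) and 59.9% for the ratio of Pdgf Cre minus Pdgf (49%). With spike-ins they were 35.1% in astrocytes and 40.4% in cortical Olig2 cells (52.5%) over total cortex RNA, 24.4% in astrocytes over mature oligodendrocytes (47.8%), 31.3% over progenitors, 37% over cortical Olig2 cells, 31.9% in progenitors over mature oligodendrocytes, 62% in Pdgf Cre over cortical Olig2 cells (49.2%), 69.5% in Pdgf Cre over Pdgf, 34.1% in Recruited over Pdgf Cre, and for ratios 68.3% (Pdgf Cre minus Pdgf) and 35.6% (Recruited minus Pdgf Cre, 51.8%). The cause of these moves was not tested. Signal over background limits Gjb1, Gjb2 and Gjc3 most, which were dim in most groups.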
